A study of Mus musculus with 6 samples.

Results

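The BCL-2 family decides whether a thymocyte keeps its mitochondria intact or dies by apoptosis, and 10 of its genes were followed here at the mRNA level in double positive (DP) thymocytes of WT mice and of mice with a conditional knockout of the splicing regulator NSrp70. The genes were taken by symbol: the anti-apoptotic *Bcl2*, *Bcl2l1* (BCL-XL) and *Mcl1*, the pore-forming effectors *Bax* and *Bak1*, and the BH3-only genes *Bcl2l11* (BIM), *Bbc3* (PUMA), *Pmaip1* (NOXA), *Bid* and *Bad*. All 10 were found among the 23183 gene symbols listed for every library, and all 10 passed the filter on low values.

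The proteins of the family meet on the outer mitochondrial membrane. BAX and BAK, once active, form pores that release cytochrome c, which starts the caspase cascade through APAF1. The anti-apoptotic proteins hold BAX and BAK in check and also bind the BH3-only proteins, which act as the sensors of stress, of lost cytokine support and of strong T cell receptor signals. DP thymocytes are short-lived cells that die unless they are positively selected, BCL-XL is the survival protein most associated with the DP stage, BCL-2 is regained by selected cells, and BIM is required for much of the death of negatively selected thymocytes.

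The study asked how loss of NSrp70 changes gene expression in DP thymocytes. Sorted CD4+ CD8+ thymocytes came from C57BL/6 mice of 6 weeks, with 3 libraries from *Nsrp1* f/f mice (WT) and 3 from *Nsrp1* f/f CD4Cre mice (NSrp70-cKO). Both genotypes carried the floxed *Nsrp1* alleles and the WT mice had no Cre, so that the presence of Cre and the deletion cannot be told apart. CD4Cre acts in T-lineage cells from about the start of the DP stage onwards, and the sources used here do not say whether a library held 1 mouse or a pool, so p-values measure the spread between these libraries.

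The unit is FPKM (fragments per kilobase of transcript, relative to all mapped fragments), which is scaled by transcript length and therefore allows levels to be set side by side between genes. Depth estimated from the smallest steps of the values was 20.7 to 20.9 M fragments (M, mega) in the WT libraries and 13.2, 20.7 and 17.4 M in cKO 1, 2 and 3. The targeted gene, listed under its older symbol *Ccdc55*, stood at 20.2, 20.7 and 21.1 FPKM in WT and at 17.7, 15.8 and 15.0 FPKM in cKO, so that 78.2% of the WT mean remained in the whole-gene value. The 3 WT libraries differed from each other by 1.64 to 1.71 times counting noise and the cKO libraries by 30.8 to 77.6 times. The summed FPKM of a library was 521296 to 531517 in WT and 701396 to 850548 in cKO, and across 10245 genes the log2 fold change had a rank correlation of -0.30 with transcript length and of -0.33 with GC content. Sex-linked genes also separated the groups, since *Xist* was at 69.8 to 72.0 FPKM in WT and 4.07 to 5.44 in cKO, and *Ddx3y* was listed at 0 in all WT libraries, against 26.2 to 35.0 FPKM in cKO, and the part of sex in any difference cannot be told apart from that of genotype.

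What the members share is the BH3 core, a short helix with an invariant leucine and aspartate that, in the BH3-only proteins, docks into a groove of the anti-apoptotic proteins. The coding stretches of this core are shown because they encode the feature that these genes have in common, and they follow in the order of the roles below, 5′ to 3′ on the coding strand, from the GENCODE M21 transcripts on GRCm38 (mm10). Capitals mark the codons of the leucine and the aspartate, and each stretch of 36 bases lies within 1 coding exon. The stretch of *Pmaip1* is not shown here.
Bcl2: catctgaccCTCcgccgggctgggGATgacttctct
Bcl2l1: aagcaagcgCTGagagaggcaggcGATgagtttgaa
Mcl1: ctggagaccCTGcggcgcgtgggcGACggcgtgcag
Bax: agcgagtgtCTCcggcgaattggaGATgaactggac
Bak1: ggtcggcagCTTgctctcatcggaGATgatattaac
Bcl2l11: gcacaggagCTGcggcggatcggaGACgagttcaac
Bbc3: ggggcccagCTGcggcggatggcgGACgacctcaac
Bid: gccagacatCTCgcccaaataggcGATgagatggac
Bad: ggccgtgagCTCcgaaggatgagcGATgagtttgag

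These stretches lie at chr1:106712575-106712610 in exon 1 of *Bcl2* (minus strand), chr2:152829697-152829732 in exon 2 of *Bcl2l1* (minus), chr3:95659427-95659462 in exon 1 of *Mcl1* (plus), chr7:45465997-45466032 in exon 3 of *Bax* (minus) and chr17:27022531-27022566 in exon 4 of *Bak1* (minus). Those of the BH3-only genes lie at chr2:128147141-128147176 in exon 3 of *Bcl2l11* (plus), chr7:16313764-16313799 in exon 3 of *Bbc3* (plus), chr6:120897289-120897324 in exon 4 of *Bid* (minus) and chr19:6950783-6950818 in exon 3 of *Bad* (plus). The FPKM value of a gene sums its transcripts, and several members are known to make isoforms of different activity. For *Bcl2l11*, 4 of its 5 complete coding transcripts hold the core and the shortest, of 91 codons, does not, so the values below do not say which form was made.

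In WT DP thymocytes the anti-apoptotic mRNAs *Mcl1* and *Bcl2l1* were the most abundant of the family. The mean FPKM fell in the order *Mcl1* (152), *Bcl2l1* (118), *Bax* (64.9), *Bcl2l11* (39.9), *Bak1* (38.0), *Bad* (26.8), *Bbc3* (17.8), *Bid* (17.4), *Bcl2* (8.31) and *Pmaip1* (1.85). Neighbours in this order did not overlap between their 3 libraries except *Bcl2l11* with *Bak1* and *Bbc3* with *Bid*. Among 10307 genes at 1 FPKM or more in WT, *Mcl1* lay above 95.6% and *Bcl2l1* above 93.8%, whereas *Bcl2* lay above 34.0% and *Pmaip1* above 6.7%. In NSrp70-cKO the order was *Bcl2l1* (141), *Mcl1* (128), *Bax* (66.4), *Bak1* (60.8), *Bad* (52.5), *Bid* (28.3), *Bcl2l11* (20.1), *Bbc3* (11.5), *Pmaip1* (3.87) and *Bcl2* (3.66). Here the ranges of *Bcl2l1* and *Mcl1* overlapped, as did those of *Bax* with *Bak1*, *Bak1* with *Bad*, and *Pmaip1* with *Bcl2*. The largest changes of rank were that of *Bcl2l11*, from place 4 to place 7, and that of *Bid*, from place 8 to place 6.

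**Figure D1:**
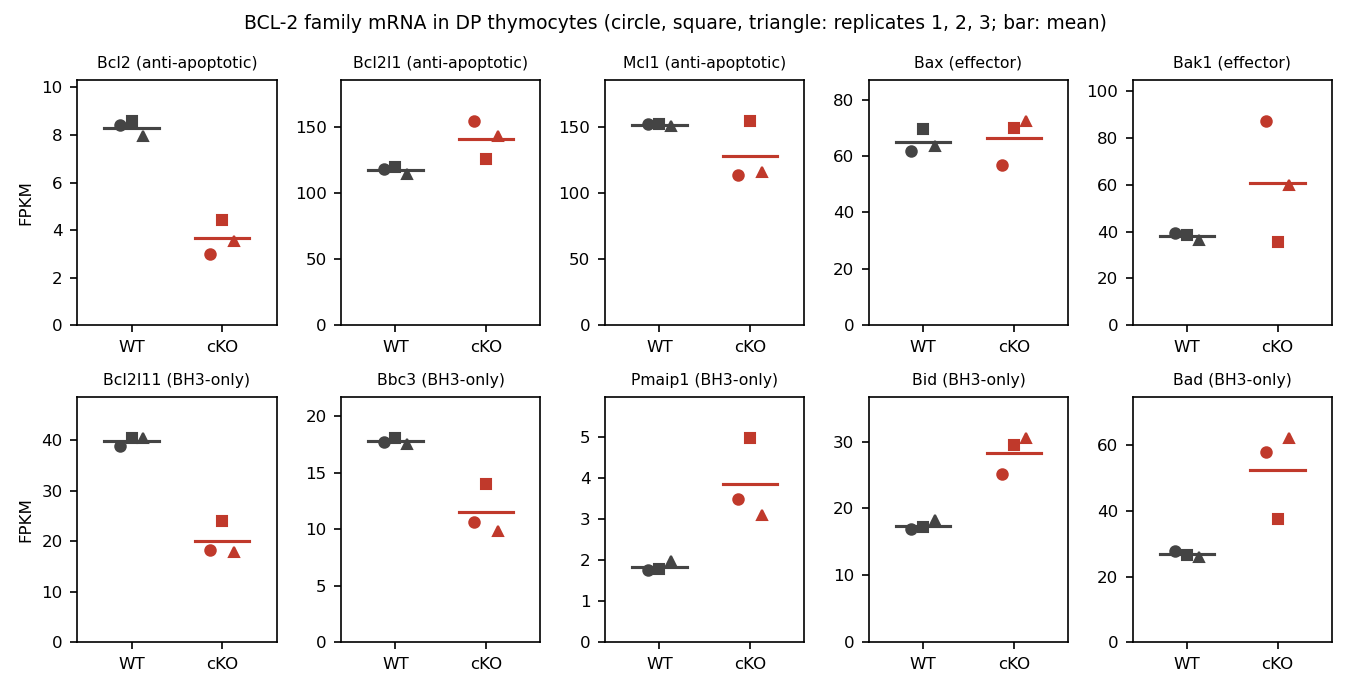
FPKM of the 10 BCL-2 family genes in each DP thymocyte library (vertical axes in FPKM from 0, a separate scale for each gene), with WT in grey and NSrp70-cKO in red; the symbols are replicates 1, 2 and 3 and the bar is the group mean. All cKO values of *Bcl2*, *Bcl2l11* and *Bbc3* lie below all WT values, those of *Bcl2l1*, *Pmaip1*, *Bid* and *Bad* lie above, and *Mcl1*, *Bax* and *Bak1* overlap.

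Between the genotypes, 7 of the 10 genes passed the test (adjusted p under 0.05 over the 10326 genes tested). In NSrp70-cKO, 4 rose and 3 fell, but with libraries scaled to the same FPKM total 1 rose and 6 fell. That scaling moved the median over every gene tested from 0.039 to -0.45 and called 902 of them higher and 6181 lower. In the main fit 65.5% of all tested genes passed, 35.8% higher and 29.8% lower, so that 7 of 10 is close to the background share. With the WT libraries, which differed by little more than counting noise, averaged to 1 sample, only *Bcl2* and *Bcl2l11* passed and *Bcl2l1*, *Bbc3*, *Pmaip1*, *Bid* and *Bad* did not (2 of 10). The median log2 fold change of the 10 genes was 0.14. All 3 cKO libraries lay on one side of all 3 WT libraries for the same 7 genes, against 72.5% of tested genes. Only *Bcl2* was called with a change of at least 2-fold on the log2(FPKM + 1) scale, 1 of 10 genes against 8.59% of tested genes.

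Among the anti-apoptotic genes, *Bcl2*, which protects selected and mature T cells, changed most. It stood at 8.40, 8.60 and 7.94 FPKM in WT 1, 2 and 3 and at 3.00, 4.44 and 3.53 FPKM in cKO 1, 2 and 3. Every cKO library was below every WT library, and the highest of the cKO values was cKO 2. The cKO mean of 3.66 ± 0.731 (SD, n = 3) was 0.440 times the WT mean of 8.31, and the log2 fold change was -1.01 (SE 0.115, 95% interval -1.28 to -0.74, adjusted p = 0.000439 from limma). *Bcl2* was lower and past the threshold under all 17 other settings tried, between -1.48 and -0.87.

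*Bcl2l1*, whose product BCL-XL carries DP thymocytes through their short life, did not share this fall. Its values were 119, 120 and 115 FPKM in WT and 155, 126 and 144 FPKM in cKO, so that the cKO libraries were all higher but cKO 2 exceeded the highest WT library by little. The cKO mean was 141 ± 14.7 (SD, n = 3) against 118, with a log2 fold change of 0.26 (SE 0.093, adjusted p = 0.0438 from limma), which turned to -0.30 when libraries were scaled to the same FPKM total and to -0.11 with quantile normalization. The call was also lost without any 1 of WT 1, WT 2, WT 3, cKO 1 or cKO 3 (adjusted p between 0.0843 and 0.135). Corrected for GC content and length it was 0.55.

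*Mcl1* encodes an unstable protein that is needed for survival at many stages of T cell development. It was at 152, 153 and 151 FPKM in WT and at 113, 155 and 116 FPKM in cKO. The library cKO 2 was at the WT level and the other two were below it, and the groups overlapped. The log2 fold change was -0.26 (95% interval -0.55 to 0.024, adjusted p = 0.0939 from limma), and it was -0.39 without cKO 2 (adjusted p = 0.000225). With the same FPKM total it was -0.82 (adjusted p = 0.00368) and with quantile normalization -0.67 (adjusted p = 0.00634).

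The summed FPKM of the 3 anti-apoptotic genes overlapped between the genotypes as deposited, at 279, 281 and 273 in WT and 271, 285 and 263 in cKO. *Bcl2* made up 2.99% of this sum on average in WT and 1.34% in cKO, so the fall of *Bcl2* hardly enters the total. With the same FPKM total all 3 genes were called lower (median log2 fold change -0.82), but so were 6181 of all 10326 tested genes (median -0.45). With quantile normalization 2 of the 3 were lower (median -0.67), against 3041 of all 10326 tested genes (median 0.036).

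Neither pore-forming effector passed the test. *Bax*, whose product moves to the mitochondria when a cell is committed to die, was at 61.6, 69.5 and 63.6 FPKM in WT and 56.9, 69.9 and 72.4 FPKM in cKO. The cKO libraries lay on both sides of the WT libraries, with a log2 fold change of 0.026 (95% interval -0.22 to 0.27, adjusted p = 0.835 from limma). It was below 0 under 6 of 17 other settings, among them -0.53 with the same FPKM total (adjusted p = 0.00646), -0.22 with quantile normalization, and -0.0080, -0.0047 and -0.041 without WT 1, cKO 2 or cKO 3.

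*Bak1*, whose product sits in the mitochondrial membrane from the start, was the member with the widest spread among the cKO libraries. Its values of 39.4, 38.4 and 36.3 FPKM in WT contrasted with 87.3, 35.4 and 59.9 FPKM in cKO. The library cKO 2 was below all WT libraries, while cKO 1 and cKO 3 were above them. The cKO mean was 60.8 ± 26.0 (SD, n = 3) against 38.0, with a log2 fold change of 0.57 (95% interval -0.11 to 1.26, adjusted p = 0.120 from limma). The value was 0.92 without cKO 2 (adjusted p = 0.00192) and 0.91 corrected for GC content and length (adjusted p = 0.0299).

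The BH3-only genes moved in opposite directions, and all 5 passed the test, 2 lower and 3 higher, or 2 lower and 1 higher with the same FPKM total. Of all tested genes 65.5% passed, 29.8% lower and 35.8% higher, so that calls in both directions were common. *Bcl2l11* encodes BIM, which binds every anti-apoptotic member and can activate BAX and BAK. It was the most abundant BH3-only mRNA in WT, with 38.9, 40.4 and 40.4 FPKM, and stood at 18.3, 24.1 and 17.9 FPKM in cKO. No cKO library reached a WT value, and cKO 2 was again the nearest to them. The cKO mean of 20.1 ± 3.46 (SD, n = 3) was 0.504 times the WT mean of 39.9, with a log2 fold change of -0.97 (SE 0.110, 95% interval -1.23 to -0.71, adjusted p = 0.000439 from limma). Like *Bcl2*, it was lower and past the threshold under all 17 other settings, between -1.51 and -0.85.

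*Bbc3* encodes PUMA, a BH3-only protein induced by p53 and by loss of growth factors. It fell from 17.7, 18.1 and 17.6 FPKM in WT to 10.6, 14.0 and 9.86 FPKM in cKO, again with no overlap. The cKO mean was 11.5 ± 2.21 (SD, n = 3) and the log2 fold change -0.60 (SE 0.118, adjusted p = 0.00364 from limma). Corrected for GC content and length it was -0.23 (adjusted p = 0.237). The *Bbc3* transcript, at 65.2% GC, has the highest GC content of the 10.

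*Pmaip1* encodes NOXA, which mainly opposes MCL1. It was the least abundant member in WT, at 1.77, 1.78 and 1.99 FPKM, and was at 3.51, 4.98 and 3.11 FPKM in cKO. All cKO libraries were above all WT libraries, and the values rest on about 93 to 261 fragments per library. The cKO mean was 3.87 ± 0.985 (SD, n = 3), 2.09 times the WT mean, and the log2 fold change was 0.75 (SE 0.141, adjusted p = 0.00302 from limma), or 0.36 with the same FPKM total (adjusted p = 0.118).

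*Bid*, the link from death receptors to the mitochondria once its product is cut by caspase-8, was at 16.9, 17.2 and 18.2 FPKM in WT and at 25.1, 29.4 and 30.5 FPKM in cKO. The groups were well apart and cKO 1 was the lowest of the cKO libraries. The cKO mean was 28.3 ± 2.86 (SD, n = 3), with a log2 fold change of 0.67 (SE 0.085, adjusted p = 0.000652 from limma), or 0.13 with the same FPKM total (adjusted p = 0.328). *Bid* overlaps *Bcl2l13* on the opposite strand, which was itself at 13.4 FPKM in WT and 15.3 in cKO, and the strand setting behind the values is not given in the sources used here, so that reads of the overlap cannot be assigned with certainty.

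*Bad*, whose product is kept inactive by growth factor signals that phosphorylate it, was at 27.9, 26.5 and 25.9 FPKM in WT and at 57.8, 37.6 and 62.0 FPKM in cKO. All cKO libraries were higher, with cKO 2 closest to WT. The cKO mean was 52.5 ± 13.1 (SD, n = 3), 1.96 times the WT mean, with a log2 fold change of 0.91 (SE 0.181, adjusted p = 0.00376 from limma), and it was 0.37 and still past the threshold with the same FPKM total (adjusted p = 0.0329). *Bad* overlaps *Gpr137* on the opposite strand, which was at 5.49 FPKM in WT and 5.11 in cKO. Among the other members, *Bak1* overlaps *Ggnbp1* on the opposite strand, at 0.673 FPKM in WT and 0.0595 in cKO. *Bcl2* overlaps *D630008O14Rik* on the opposite strand and *Bax* overlaps *Gm45808* on its own strand, and neither gene was found under these symbols.

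**Figure D2:**
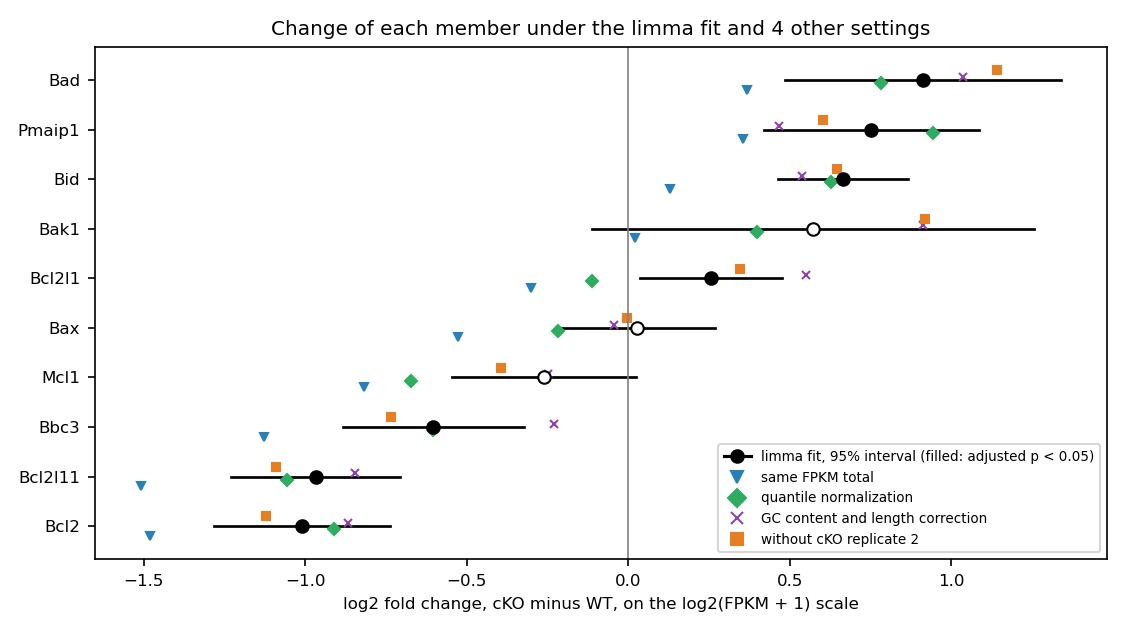
Log2 fold change of each BCL-2 family gene, NSrp70-cKO minus WT, on the log2(FPKM + 1) scale (horizontal axis, genes on the vertical axis); circles with 95% intervals are the limma fit, filled where the adjusted p is under 0.05, and the other symbols are the same value under 4 other settings. *Bcl2*, *Bcl2l11*, *Bbc3* and *Mcl1* stay left of 0 at every setting shown, *Pmaip1*, *Bid*, *Bad* and *Bak1* stay right of it, and *Bcl2l1* and *Bax* fall on both sides.

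The fall of some members and the rise of others changed the proportions within the family. *Bcl2l11* held 37.7, 38.8 and 38.8% of the summed BH3-only FPKM in WT and 15.9, 21.9 and 14.5% in cKO. *Bad* held 27.0, 25.5 and 24.9% in WT and 50.1, 34.1 and 50.3% in cKO. The leading BH3-only mRNA was therefore *Bcl2l11* in every WT library and *Bad* in every cKO library. The sum of these 5 genes as deposited was 103 to 104 FPKM in WT and 110 to 123 FPKM in cKO. The library totals were 521296 to 531517 in WT and 701396 to 850548 in cKO, so relative to them the sum was lower in cKO. With *Bmf*, a further BH3-only gene, the sum as deposited was 141 to 143 FPKM in WT and 125 to 137 FPKM in cKO, and the direction turned. These shares and the ratios below are descriptions with no test, and a ratio within a library does not depend on the factor by which a library is scaled, though quantile normalization can change it.

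The ratio of *Bcl2* to *Bcl2l11*, an opposing pair of survival and death genes, overlapped between the genotypes, as both genes fell. It was 0.216, 0.213 and 0.197 in WT and 0.163, 0.184 and 0.197 in cKO. The other survival genes did not keep pace with *Bcl2l11*. The ratio of *Mcl1* to *Bcl2l11* was 3.90, 3.78 and 3.73 in WT and 6.19, 6.42 and 6.47 in cKO, with little spread in either group although *Mcl1* alone varied among the cKO libraries. The ratio of *Bcl2l1* to *Bcl2l11* was 3.04, 2.97 and 2.84 in WT and 8.44, 5.22 and 8.03 in cKO. Per unit of *Bcl2l11* mRNA, both *Mcl1* and *Bcl2l1* were thus more abundant in every cKO library than in any WT library. The ratio of the summed anti-apoptotic members to the summed BH3-only members, without *Bmf*, went the other way. It was 2.70, 2.70 and 2.63 in WT and 2.35, 2.59 and 2.13 in cKO. This fall holds for the 5 BH3-only members alone. With *Bmf* the BH3-only sum was lower in cKO (141 to 143 FPKM in WT and 125 to 137 in cKO), while the anti-apoptotic sums overlapped.

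*Bcl2l1* to *Bcl2* and *Bcl2l11* to *Bbc3* also separated the groups, whereas *Bax* to *Bak1* did not. *Bcl2l1* to *Bcl2* was 13.9 to 14.4 in WT and 51.7, 28.3 and 40.7 in cKO 1, 2 and 3. *Bax* to *Bak1* was 1.56, 1.81 and 1.75 in WT and 0.652, 1.98 and 1.21 in cKO, so that the groups overlapped through cKO 2. *Bcl2l11* to *Bbc3*, the 2 BH3-only genes that fell, was 2.20, 2.23 and 2.30 in WT and 1.73, 1.72 and 1.81 in cKO. *Bcl2l11* thus lost more than *Bbc3* in each cKO library relative to WT.

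**Figure D3:**
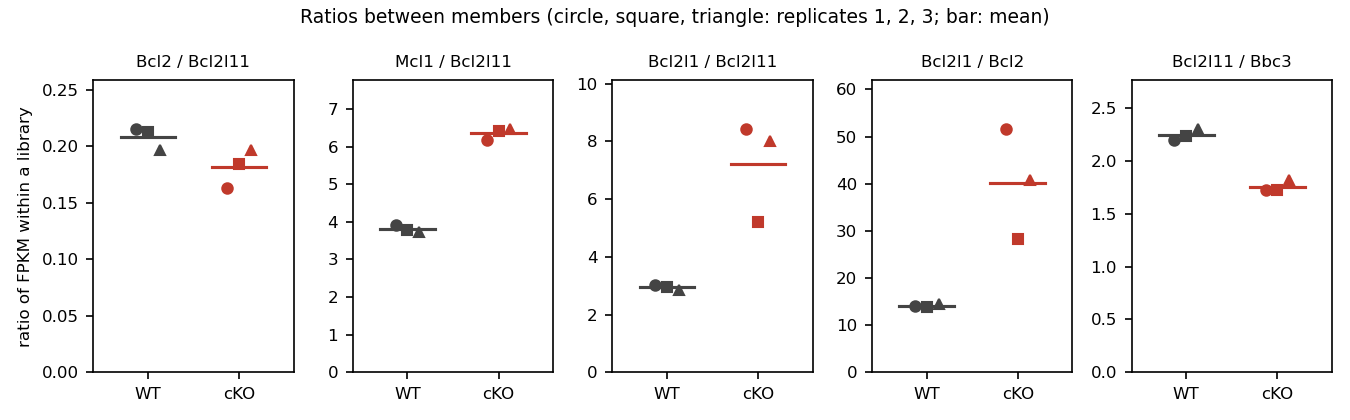
Ratio of the FPKM of 2 BCL-2 family genes within each library (vertical axes from 0, a separate scale for each ratio), with WT in grey and NSrp70-cKO in red; the symbols are replicates 1, 2 and 3 and the bar is the mean. *Bcl2* to *Bcl2l11* overlaps between the genotypes, whereas *Mcl1* and *Bcl2l1* to *Bcl2l11* are higher in all cKO libraries and *Bcl2l11* to *Bbc3* is lower.

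The library cKO 2 was the nearest of the cKO libraries to the WT mean for 8 of the 10 genes, the exceptions being *Pmaip1*, for which it was the farthest, and *Bid*. It was also the deepest cKO library, at 20.7 M fragments, and the one with the lowest FPKM total, at 701396. The part of depth or library composition in the spread was not tested. Without cKO 2, all of the genes but *Bax* passed the test, which makes 9 of 10. Calls rose over all 10326 tested genes too, from 6766 with every library to 7654 without cKO 2.

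The promoters of the BH3-only genes that fell are shown because *Bcl2l11* and *Bbc3* are known targets of the FOXO transcription factors, and because *Foxo1* (13.3 FPKM in WT and 8.39 ± 0.816 in cKO, n = 3, adjusted p = 0.00103) and *Foxo3* (14.7 and 10.5 ± 1.68, n = 3, adjusted p = 0.00857) fell with them in limma, genes named after their values were seen. Windows of 250 bases before to 50 bases after each start, 300 bases in all, were taken from RefSeq on GRCm38.p6, with 15 windows for 9 of the members. The letters GTAAACA, on either strand, were in 1 window of each of these genes, at chr2:128125788-128126087 (plus strand) for *Bcl2l11*, 227 bases before the start, and at chr7:16310011-16310310 (plus strand) for *Bbc3*, 167 bases before the start, and are printed in capitals, in reverse complement for *Bbc3*.
Bcl2l11: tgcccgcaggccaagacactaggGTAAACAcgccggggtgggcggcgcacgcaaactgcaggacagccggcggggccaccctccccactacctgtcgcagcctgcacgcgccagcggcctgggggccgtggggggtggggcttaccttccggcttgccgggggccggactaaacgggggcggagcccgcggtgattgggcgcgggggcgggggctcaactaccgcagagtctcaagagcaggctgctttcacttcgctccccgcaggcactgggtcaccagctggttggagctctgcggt
Bbc3: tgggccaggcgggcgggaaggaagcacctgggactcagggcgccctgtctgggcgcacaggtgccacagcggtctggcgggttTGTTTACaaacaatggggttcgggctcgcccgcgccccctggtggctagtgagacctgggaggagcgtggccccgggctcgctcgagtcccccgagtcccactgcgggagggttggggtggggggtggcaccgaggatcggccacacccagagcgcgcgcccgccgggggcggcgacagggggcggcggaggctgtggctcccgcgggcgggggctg

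These letters occur in 3.65% of the 32851 windows of that table and in 2 of the 15 windows of the members. The AP-1 letters TGANTCA (7.81% of all windows) and the NR4A letters AAAGGTCA (1.51%) were in none of the 15, and AGGTCA, which is contained in AAAGGTCA, was in 16.26% of all windows and in 1 of the 15, of *Bcl2l1*. A match is a run of letters and not a bound site, and the motifs were picked after the values were seen. A part of the FOXO factors in the fall of *Bcl2l11* or *Bbc3* was not tested.

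Beyond the 10, a list of 17 other BCL-2 family genes held 9 that passed the filter, of which 2 were higher and 3 lower (with the same FPKM total, none and 6), with a median log2 fold change of -0.073. The 5 called are 55.6% of the 9, against 65.5% of all tested genes. *Bmf*, a BH3-only gene whose product senses changes of the cytoskeleton, was the most changed of them, at 38.1, 38.3 and 38.4 FPKM in WT and 12.3, 15.0 and 14.1 FPKM in cKO. The groups were far apart, with a log2 fold change of -1.41 (SE 0.078, adjusted p = 8.28e-05 from limma). The WT level of *Bmf* was near that of *Bcl2l11* (39.9 FPKM). *Bcl2a1b*, an anti-apoptotic A1 gene, was at 1.27 FPKM in WT and 0.368 in cKO (adjusted p = 0.00115), but the A1 genes are near-identical copies and the value is uncertain. *Bnip3l*, which marks mitochondria for removal, was at 58.5 and 75.6 ± 8.21 FPKM (n = 3, adjusted p = 0.0122) and *Bcl2l13* at 13.4 and 15.3 ± 0.593 FPKM (n = 3, adjusted p = 0.0392), but with the same FPKM total their log2 fold changes were -0.20 and -0.35. The 8 genes that did not pass the filter were *Bcl2a1a*, *Bcl2a1c*, *Bcl2a1d*, *Bcl2l10*, *Bok*, *Bcl2l14*, *Bcl2l15* and *Hrk*, none above 1.43 FPKM in any library. The called count of this list rests in part on single libraries: without WT 2 it was 3 of 9, with none higher.

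Downstream of the family, the list of 18 genes of the mitochondrial death pathway had 10 higher, 1 lower and 7 not past the threshold, with a median of 0.38 against 0.039 for all tested genes. The called share was 61.1%, against 65.5% of all tested genes. With the same FPKM total the counts were 5 higher and 7 lower, and the median was -0.11. *Birc5* (survivin), which acts in mitosis as well as in inhibition of death, was at 110 FPKM in WT and 261 ± 28.6 in cKO (n = 3, adjusted p = 0.000146), and *Vdac1*, a channel of the outer mitochondrial membrane, at 155 and 299 ± 30.6 FPKM (n = 3, adjusted p = 0.000286). *Htra2*, a protease released from mitochondria, was the gene that fell, from 10.8 to 7.37 ± 1.17 FPKM (n = 3, adjusted p = 0.00523). Further along the same path, and named after its values were seen, *Cycs* (cytochrome c) was at 25.6 and 47.5 ± 6.35 FPKM (n = 3, adjusted p = 0.000483). The apoptosome genes, also named after their values were seen, gave no call, with *Apaf1* at 13.3 and 13.6 ± 0.854 FPKM (n = 3, adjusted p = 0.820) and *Casp9* at 3.67 and 3.24 ± 0.491 FPKM (n = 3, adjusted p = 0.238), but with the same FPKM total both were called lower, at -0.50 (adjusted p = 0.00621) and -0.58 (adjusted p = 0.00315).

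Of 24 known regulators of the family, 15 were lower, 4 higher and 5 not past the threshold, with a median of -0.45, and with the same FPKM total 21 were lower and 1 higher. The called share was 79.2%, against 65.5% of all tested genes, and the share called lower over all tested genes was 29.8%. With the same FPKM total, 6181 of all 10326 tested genes were lower. *Il7r*, the receptor through which interleukin 7 sustains *Bcl2*, was at 5.86, 6.00 and 5.90 FPKM in WT and at 1.22, 1.22 and 1.06 FPKM in cKO. *Nr4a3*, a nuclear receptor gene induced by T cell receptor signals, was at 4.69, 4.76 and 4.64 FPKM in WT and 1.75, 1.95 and 1.55 FPKM in cKO. Both were well separated, with log2 fold changes of -1.67 (adjusted p = 4.82e-05) and -1.05 (adjusted p = 0.000146) in limma. *Dynll1*, a light chain that binds BIM, was at 88.8 FPKM in WT and 163 ± 16.9 in cKO (n = 3, adjusted p = 0.000312), and *Tcf12*, an E protein gene, at 131 and 161 ± 1.59 FPKM (n = 3, adjusted p = 0.00486), though the log2 fold change of *Tcf12* was -0.26 with the same FPKM total and -0.10 with quantile normalization. *Trp53*, whose product induces *Bbc3* and *Pmaip1* and which was named after its values were seen, was at 66.2 FPKM in WT and 66.1 ± 2.72 in cKO (n = 3, adjusted p = 0.967), with a log2 interval of -0.16 to 0.15, but its log2 fold change was -0.56 with the same FPKM total (adjusted p = 0.000527) and -0.24 with quantile normalization (adjusted p = 0.00581).

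**Figure D4:**
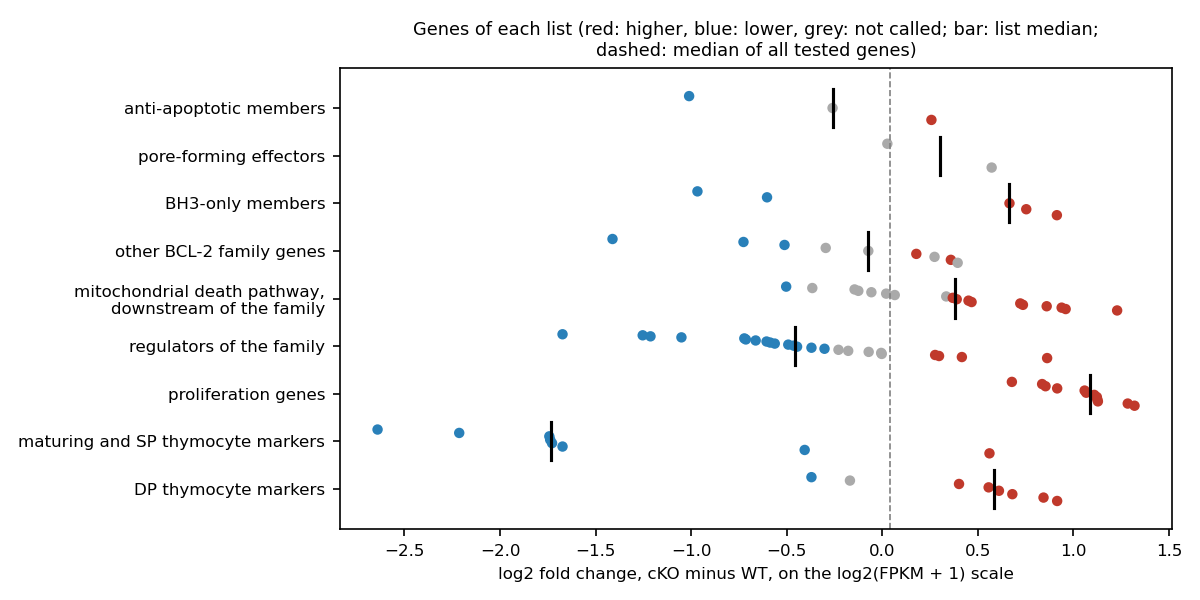
Log2 fold change of each tested gene, NSrp70-cKO minus WT, on the log2(FPKM + 1) scale (horizontal axis), for the BCL-2 family groups and the surrounding lists (vertical axis); red genes are called higher, blue lower and grey not called, the bar is the list median and the dashed line the median of all tested genes. The BH3-only genes stand on both sides, the regulators lie mostly to the left (median -0.45) and the downstream genes mostly to the right (median 0.38, or -0.11 with the same FPKM total).

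Markers of proliferation and of thymocyte stage differed between the genotypes too, and in bulk RNA fewer cells of a type and less RNA per cell cannot be told apart. All 12 proliferation genes were higher (11 of 12 with the same FPKM total), with a median of 1.09, and their summed FPKM was 1152 to 1154 in WT and 2252 to 2621 in cKO. *Ccnb1* rose from 38.6 to 97.9 ± 5.95 FPKM, *Cdk1* from 26.0 to 57.4 ± 2.67, *Ccna2* from 69.6 to 146 ± 5.84 and *Top2a* from 142 to 299 ± 7.31 (n = 3, adjusted p between 8.13e-05 and 0.000103 in limma). Of 8 markers of maturing and single positive thymocytes, cells in which *Bcl2* and *Il7r* are normally high, 7 were lower and 1 higher, with a median of -1.73 and summed FPKM of 178 to 181 in WT and 140 to 152 in cKO. Of 8 DP markers 6 were higher and 1 lower, with a median of 0.58, but 2 were higher and 2 lower with the same FPKM total and 1 higher and 4 lower with quantile normalization, and their share of all FPKM was 1.02 to 1.05% in WT and 1.02 to 1.19% in cKO. The part of these cells in the values of *Bcl2*, *Bcl2l11* or any other member was not tested.

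Cells of other kinds left little trace. *Foxn1* and *Krt5* were listed at 0 in all 6 libraries, and the summed FPKM of 4 myeloid markers was 3.84 to 4.28 in WT and 3.92 to 4.87 in cKO. The 3 erythroid markers found summed to 0.585 to 1.06 FPKM in WT and 3.49 to 10.9 in cKO, and the 4 B cell markers to 22.6 to 24.0 in WT and 26.6 to 39.4 in cKO, nearly all of it from *Cd79b*. The 4 dendritic cell markers summed to 5.37 to 6.56 FPKM in WT and 2.79 to 6.04 in cKO, the 4 epithelial markers to 3.45 to 3.80 and 1.88 to 3.62, the 3 endothelial markers to 43.3 to 45.5 and 49.7 to 54.8, nearly all from *Pecam1*, and the 4 markers of double negative thymocytes to 34.0 to 34.4 and 27.2 to 38.3, although with the same FPKM total all 3 tested markers of double negative cells were called lower. As a share of all FPKM, the B cell markers overlapped, at 0.0043 to 0.0045% in WT and 0.0038 to 0.0046% in cKO. The endothelial share was lower in cKO, at 0.0064 to 0.0071% against 0.0083 to 0.0086% in WT. Myeloid, dendritic cell, epithelial and double negative shares were also lower in every cKO library, and the erythroid share was higher. The part of these cells in the values of the 10 genes was not tested.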

How the data were processed

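The authors sequenced directional poly(A) libraries of sorted DP thymocytes, mapped the reads to mm10 with TopHat and deposited FPKM values from Cufflinks, 1 per symbol and library. Versions, gene annotation and strand setting are not given in the sources used here. The 10 genes and all lists were chosen with earlier results of these data known.

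Libraries were scaled by median-of-ratios size factors, which were 1.00 to 1.01. Genes had to reach an FPKM of 1 in 3 or more libraries, which left 10326. The values log2(FPKM + 1) were compared between the genotypes in limma 3.58.1 (R 4.3.3, eBayes with a trend), with Benjamini-Hochberg adjustment and a threshold of 0.05. Fold changes on this scale understate those of low genes. Means and SDs are of unscaled FPKM. A simulation over 10326 genes left 10126 of them unchanged. The fit then called 89 of 100 genes with a 2-fold change, 99 of 100 with a 4-fold change and 4 of 10126 with none. These rates were not tested for data like those here, where 65.5% of genes passed and the cKO libraries varied more than the WT libraries. Depth was estimated for a fragment length assumed to be 200 nucleotides. Gene models were those of GENCODE M21 on GRCm38, to which 22112 symbols matched directly and 664 by synonym. Ambiguous symbols numbered 54, and 353 were unmatched. Genes named by rule were the 10 members, 3 check genes and, per list, the 4 with the smallest adjusted p, at most 2 in each direction where both were called. Genes named after their values were seen are marked as such, and other list genes enter the counts only. Python 3.11.15, numpy 2.4.6, pandas 2.3.3 and matplotlib 3.10.9 were used. Alternatives were another pseudocount, filter, scaling, no trend, a replicate block, WT as 1 sample, a correction for GC content and length by splines with 5 degrees of freedom, and each library left out.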

Additional observations from a re-analysis of the deposited data

How the results depend on the processing

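*Bcl2* and *Bcl2l11* were lower and past the threshold under all 17 alternatives. With every library scaled to the same FPKM total, which moved the median of all tested genes to -0.45, 902 genes were higher and 6181 lower, and the members were 1 higher and 6 lower. The log2 fold changes were then -0.30 for *Bcl2l1*, -0.53 for *Bax*, -0.82 for *Mcl1*, 0.36 for *Pmaip1* and 0.13 for *Bid*, and the lists gave 0 higher and 6 lower (other BCL-2 family), 5 higher and 7 lower (downstream) and 1 higher (regulators). Quantile normalization gave -0.11 for *Bcl2l1*, -0.22 for *Bax* and -0.67 for *Mcl1* (adjusted p = 0.00634). The causes of these shifts were not tested.

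With the WT libraries averaged to 1 sample, which leaves fewer samples, 1641 genes were called (739 higher, 902 lower), and 2 of the 10 members, 0 of them higher. *Bcl2l1* (0.26), *Bbc3* (-0.60), *Pmaip1* (0.75), *Bid* (0.66) and *Bad* (0.91) then missed the threshold, with adjusted p between 0.0513 (*Bid*) and 0.385 (*Bcl2l1*). The lists gave 1 call, 1 lower and 0 higher (other BCL-2 family), 5 calls, 5 higher and 0 lower (downstream) and 3 calls, 1 higher and 2 lower (regulators). Corrected for GC content and length, *Bax* was at -0.043, *Bak1* at 0.91, past the threshold, and *Bbc3* at -0.23, no longer past it, and 2 downstream genes were lower.

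With no filter, *Bcl2l1* (0.26) had an adjusted p of 0.0593, and 8 other BCL-2 family genes were called, 5 of them lower. With the filter at an FPKM of 5, 3 were called, 1 of them lower, and *Pmaip1* gave no value. Same-numbered WT and cKO libraries did not deviate together (correlations of -0.022, 0.038 and 0.031), and differently numbered ones gave -0.068 to 0.051. Spread within WT was only 1.64 to 1.71 times counting noise, so a shared deviation could hardly show. This check therefore cannot tell whether the numbers pair the samples. A replicate block took *Bcl2l1* (0.26) to an adjusted p of 0.0725.

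Leaving out 1 library at a time gave 6 to 9 members called, 3 to 5 higher and 3 to 4 lower, and 5589 to 7654 of all tested genes, 3083 to 4132 higher and 2503 to 3522 lower. The log2 fold change ran from 0.19 to 0.35 for *Bcl2l1*, from -0.39 to -0.18 for *Mcl1*, from -0.041 to 0.14 for *Bax* (also -0.0080 without WT 1 and -0.0047 without cKO 2) and from 0.27 to 0.92 for *Bak1*. The counts ran from 3 to 7 for other BCL-2 family genes (0 to 3 higher, 3 to 4 lower), from 11 to 14 for downstream genes (10 to 11 higher, 1 to 3 lower) and from 17 to 21 for regulators (3 to 4 higher, 14 to 17 lower). With 3 libraries a genotype, the sources of the spread among the cKO libraries could not be examined, and *Pmaip1* rests on the fewest fragments.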
